A study of Rattus norvegicus with 12 samples.

Results

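The inflammasome and pyroptosis genes described here are 10 rat genes, chosen by name from the deposited count table of 30454 genes. They are the sensor Nlrp3, its partner kinase Nek7, the adaptor Pycard, the inflammatory caspases Casp1 and Casp4, the pore-forming gasdermins Gsdmd and Gsdme, the ATP-gated channels P2rx4 and P2rx7, and the ATP-release channel Panx1. All 10 were found, and 9 had enough reads to be tested. RNA was sequenced from 12 libraries of the rat pheochromocytoma line PC12, 4 in each of 3 groups. The rTMS-MSCs group had oxygen-glucose deprivation and reoxygenation (OGD/R), mesenchymal stem cells (MSCs) and repetitive transcranial magnetic stimulation (rTMS) at 10 Hz. The MSCs group had the same injury and the stem cells. The OGDR group had the injury alone. Libraries were taken 48 h after treatment, and no group without injury was analysed here, so no level is a distance from undamaged cells. No source used here states from which species the stem cells came or whether RNA of theirs could be in the libraries. No label tells whether the 4 libraries of a group came from separate cultures, so the p-values speak only of library-to-library spread, which may be technical.

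An inflammasome is a protein platform that assembles in the cytosol after infection or injury. In the best-studied form, priming through Toll-like receptors and NF-kB raises the sensor NLRP3, and a later signal, such as ATP acting on P2X channels and the loss of potassium that follows, lets NEK7 bind NLRP3. The sensor then recruits the adaptor ASC (the product of Pycard), which gathers and activates caspase-1. Caspase-1 matures the cytokines interleukin-1 beta and interleukin-18 and cuts gasdermin D, whose fragment forms pores in the plasma membrane, a lytic death called pyroptosis. Caspase-4, the rodent enzyme also known as caspase-11, cuts gasdermin D after sensing intracellular lipopolysaccharide; gasdermin E forms pores of the same kind. The pathway has been studied in ischaemic brain injury, mostly in microglia and macrophages. Transcript levels do not show whether any of these proteins was cut or assembled.

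Each library held 18246250 to 20471838 counts in genes. Levels are in CPM, read counts brought to a common library total, with TMM scaling to correct for composition, and 1 CPM was 18 to 21 counts. A gene is said to rise or fall only where its adjusted p was under 0.05 in the edgeR quasi-likelihood test over 13692 genes. Library rTMS-MSCs 3 stood apart from its group, with a chi-square per gene of 13.5 to 25.0 against the other rTMS-MSCs libraries, which differed among themselves by 4.35 to 7.06. Of 10 chromaffin markers, which PC12 cells should carry, 5 stayed under 1 CPM in every library, and Ddc had no count. The chromaffin markers summed to 199.5 to 215 CPM in rTMS-MSCs, 189 to 235 CPM in MSCs and 274 to 339 CPM in OGDR, so OGDR lay above both other groups. Nearly all of that sum was the granin Scg2, which averaged 207 CPM in rTMS-MSCs, 203 CPM in MSCs and 293 CPM in OGDR and fell in both groups with stem cells (adjusted p = 1.72e-05 in rTMS-MSCs and 1.03e-05 in MSCs against OGDR). The tyrosine hydroxylase gene Th was scarce and rose in both, averaging 0.614 CPM in rTMS-MSCs, 0.673 CPM in MSCs and 0.151 CPM in OGDR (adjusted p = 0.0205 in rTMS-MSCs and 0.0195 in MSCs against OGDR). The 10 Schwann cell markers summed to 1232 to 1331 CPM in rTMS-MSCs, 1241 to 1319 CPM in MSCs and 1037 to 1129 CPM in OGDR, beside low or absent defining markers of the labelled line. Of 14 macrophage markers, 11 stayed under 1 CPM in every library, and Adgre1, C1qa and C1qb had no count. Cd14, the lipopolysaccharide co-receptor, and the lysosomal Cd68 were read in every library, Cd68 at 2.17 to 4.15 CPM.

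Nlrp3, the sensor, was lower in both groups that had stem cells. It stood at 2.24, 1.47, 2.17 and 1.25 CPM in the rTMS-MSCs libraries, at 1.56, 1.80, 1.52 and 2.39 CPM in the MSCs libraries, and at 3.61, 3.30, 7.38 and 4.00 CPM in the OGDR libraries. Every OGDR library lay above every library with stem cells, and OGDR 3 was the highest. Nlrp3 fell in MSCs against OGDR, with a log2 fold change of -1.33 ± 0.279 (SE, adjusted p = 0.00154). It fell by nearly the same amount in rTMS-MSCs against OGDR (-1.35 ± 0.279, adjusted p = 0.000966). These comparisons share the OGDR libraries, so they are not independent. Without OGDR 3, whose level moved both estimates, the changes were -0.999 in MSCs (adjusted p = 0.0117) and -1.02 in rTMS-MSCs (adjusted p = 0.00779). Between rTMS-MSCs and MSCs the difference was -0.02, with a 95% interval of -0.65 to 0.60 on the log2 scale. A change of up to about that size in either direction was therefore not excluded. Scg2 also fell in both groups with stem cells, and its part in the Nlrp3 difference was not tested. In bulk RNA a lower level can come from fewer cells of a type or from less RNA per cell, and these cannot be told apart.

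Pycard, the adaptor, moved the other way. It stood at 11.8, 14.1, 14.6 and 10.7 CPM in the rTMS-MSCs libraries, at 9.62, 10.5, 7.69 and 8.61 CPM in the MSCs libraries, and at 8.67, 8.33, 7.91 and 4.47 CPM in the OGDR libraries. All rTMS-MSCs libraries were above all others, MSCs and OGDR overlapped, and OGDR 4 was the lowest. Pycard rose in rTMS-MSCs against OGDR by 0.80 ± 0.171 on the log2 scale (adjusted p = 0.00139), and by 0.62 without OGDR 4 (adjusted p = 0.00388). In rTMS-MSCs against MSCs its difference of 0.49 ± 0.169 fell just short of the threshold (adjusted p = 0.0506). Over 21 alternative settings this difference passed in 10 (adjusted p 0.0194 to 0.286). In MSCs against OGDR the difference was 0.31 ± 0.174 (adjusted p = 0.236), and 0.14 without OGDR 4.

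Nek7, the kinase that binds the sensor, was at 162, 154, 137 and 157 CPM in the rTMS-MSCs libraries, at 153, 149, 169 and 178 CPM in the MSCs libraries, and at 135, 127, 129 and 159.6 CPM in the OGDR libraries. OGDR 4 lay inside the range of both other groups. Nek7 rose slightly in MSCs against OGDR (log2 fold change 0.24 ± 0.0766, adjusted p = 0.0316). That call was lost without MSCs 3 (adjusted p = 0.0828), MSCs 4 (0.111), OGDR 1 (0.0751), OGDR 2 (0.108) or OGDR 3 (0.0946). Its differences in rTMS-MSCs against MSCs (-0.09 ± 0.0765, adjusted p = 0.436) and against OGDR (0.15 ± 0.0766, adjusted p = 0.146) did not pass. The second of these passed without rTMS-MSCs 3 (adjusted p = 0.0368) or OGDR 4 (0.0254). Over 21 alternative settings it passed in 4 (adjusted p 0.0233 to 0.329).

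The opposite differences of sensor and adaptor can be read without any scaling, as a ratio of raw reads within a library. There were 19.1, 10.5, 14.9 and 11.7 Nlrp3 reads per 100 Pycard reads in the rTMS-MSCs libraries, 16.2, 17.1, 19.7 and 27.8 in the MSCs libraries, and 41.6, 39.6, 93.3 and 89.5 in the OGDR libraries. The OGDR libraries did not overlap with either group, and they fell into a lower pair and a higher pair. In the higher pair, OGDR 3 had the highest Nlrp3 level of the 12 libraries and OGDR 4 had the lowest Pycard level. The ratio was formed after the levels were seen and is given as a description, with no test.

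**Figure D1:**
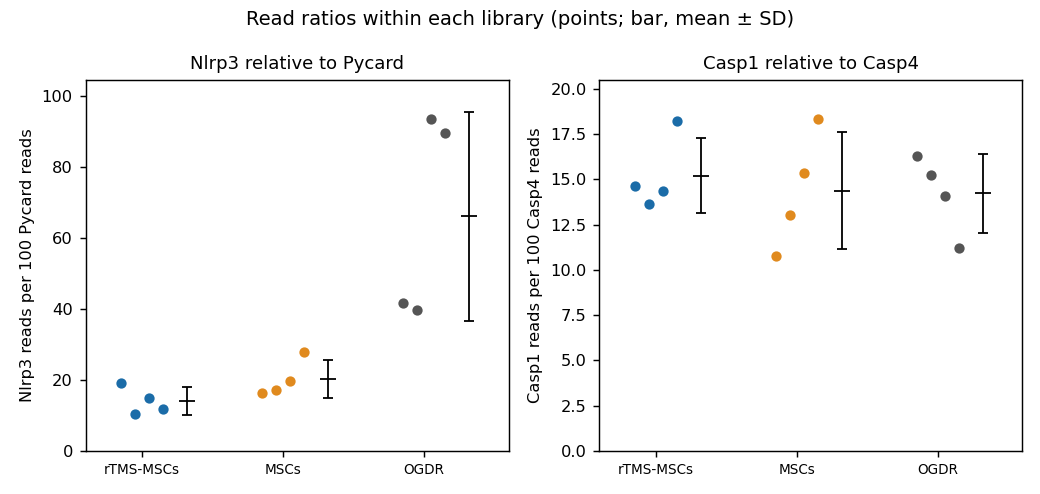
Reads of Nlrp3 per 100 reads of Pycard (left) and reads of Casp1 per 100 reads of Casp4 (right) in each library, with group mean and SD beside the points (n = 4 each, vertical axes start at 0). The left ratio was 10.5 to 19.1 in rTMS-MSCs, 16.2 to 27.8 in MSCs and 39.6 to 93.3 in OGDR; the right one overlapped across all groups.

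Promoter windows of 300 bases, from 250 before to 50 after the annotated start, were matched in RefSeq (GRCr8) for 8 of the 10 members. The windows of Nlrp3, Pycard and Casp1 are shown because the first and second genes differed in opposite directions and the last activates the cytokines. Each is written along the gene, and capitals mark every match on either strand to the motifs searched.
Nlrp3, chr10:44827848-44828147, plus strand: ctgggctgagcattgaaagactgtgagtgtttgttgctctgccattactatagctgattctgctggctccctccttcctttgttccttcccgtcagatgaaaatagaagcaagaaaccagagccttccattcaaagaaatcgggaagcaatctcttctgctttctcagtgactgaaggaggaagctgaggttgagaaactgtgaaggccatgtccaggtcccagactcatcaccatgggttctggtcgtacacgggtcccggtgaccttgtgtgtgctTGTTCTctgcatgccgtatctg
Pycard, chr1:192033370-192033669, minus strand: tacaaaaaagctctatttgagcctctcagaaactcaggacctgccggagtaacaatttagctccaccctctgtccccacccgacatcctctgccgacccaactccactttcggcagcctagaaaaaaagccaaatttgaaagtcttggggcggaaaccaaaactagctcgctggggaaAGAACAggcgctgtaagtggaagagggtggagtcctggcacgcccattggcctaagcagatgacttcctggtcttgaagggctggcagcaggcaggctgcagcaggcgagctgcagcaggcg
Casp1, chr8:10872580-10872879, plus strand: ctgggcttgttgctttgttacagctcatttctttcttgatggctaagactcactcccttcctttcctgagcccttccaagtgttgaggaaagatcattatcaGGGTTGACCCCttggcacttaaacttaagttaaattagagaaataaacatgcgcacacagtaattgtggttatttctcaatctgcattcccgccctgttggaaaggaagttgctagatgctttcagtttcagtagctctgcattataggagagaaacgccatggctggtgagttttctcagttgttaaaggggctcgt
The motifs were a wide NF-kB form (GGG, any 5 bases, then CC), AP-1 (TGANTCA), the hexamer of the glucocorticoid element (AGAACA) and the hypoxia element (ACGTG). The Nlrp3 window held the hexamer on the opposite strand at bases 279 to 284, and the Pycard window held it at bases 179 to 184; 20.7% of 33469 windows of this length held 1 or more. No other of the 8 member windows held it, so 2 of 8 did, and the windows of Nek7 and P2rx4, which also rose in a comparison, did not. The Casp1 window held overlapping NF-kB matches at bases 103 to 113, and 6 of the 8 member windows held that wide form, against 47.3% of all windows. None of the 8 held the AP-1 letters (7.33% of all windows) or the hypoxia letters (19.3%). A match describes letters only, and a missing match says only that these letters are not in the window.

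Casp4 and Casp1, the inflammatory caspases, lie next to each other on rat chromosome 8, with Casp12 following Casp4. Casp4 stood at 51.1, 42.9, 40.9 and 44.6 CPM in the rTMS-MSCs libraries, at 35.5, 35.9, 32.1 and 43.3 CPM in the MSCs libraries, and at 43.9, 49.1, 47.6 and 60.6 CPM in the OGDR libraries. No MSCs library reached the lowest OGDR library, while rTMS-MSCs overlapped both other groups. Casp4 fell in MSCs against OGDR by 0.46 ± 0.105 on the log2 scale (adjusted p = 0.00329). Its difference in rTMS-MSCs against MSCs was 0.29 ± 0.105 and did not pass (adjusted p = 0.0582), and in rTMS-MSCs against OGDR it was -0.16 ± 0.104 (adjusted p = 0.243). The first of these passed without rTMS-MSCs 3 (adjusted p = 0.0373), MSCs 4 (0.0219) or OGDR 4 (0.0389). It was furthest from passing without MSCs 3 (0.181). Over 21 alternative settings it passed in 8 (adjusted p 0.0195 to 0.181).

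Casp1, which matures the cytokines, showed the same order of group means without passing in any comparison. It stood at 7.47, 5.84, 5.88 and 8.12 CPM in the rTMS-MSCs libraries, at 3.83, 4.67, 4.93 and 7.92 CPM in the MSCs libraries, and at 7.16, 7.49, 6.70 and 6.81 CPM in the OGDR libraries. MSCs 4 was above every OGDR library, and the other 3 MSCs libraries were below all of them. The difference in MSCs against OGDR was -0.40 ± 0.188 (adjusted p = 0.145). Without MSCs 4 it was -0.65 and passed (adjusted p = 0.00945), and so did the difference of 0.61 in rTMS-MSCs against MSCs (adjusted p = 0.0194), which with all libraries was 0.36 ± 0.189 (adjusted p = 0.185). Without MSCs 1 the latter was 0.23 (adjusted p = 0.447). Over 21 alternative settings the difference in MSCs against OGDR passed in 2 (adjusted p 0.00945 to 0.381). That in rTMS-MSCs against MSCs passed in 1 (0.0194 to 0.447). In rTMS-MSCs against OGDR the difference was -0.04, with a 95% interval of -0.43 to 0.34. Reads of Casp1 per 100 reads of Casp4 were 13.6 to 18.2 in rTMS-MSCs, 10.8 to 18.3 in MSCs and 11.2 to 16.3 in OGDR, with all groups overlapping.

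**Figure D2:**
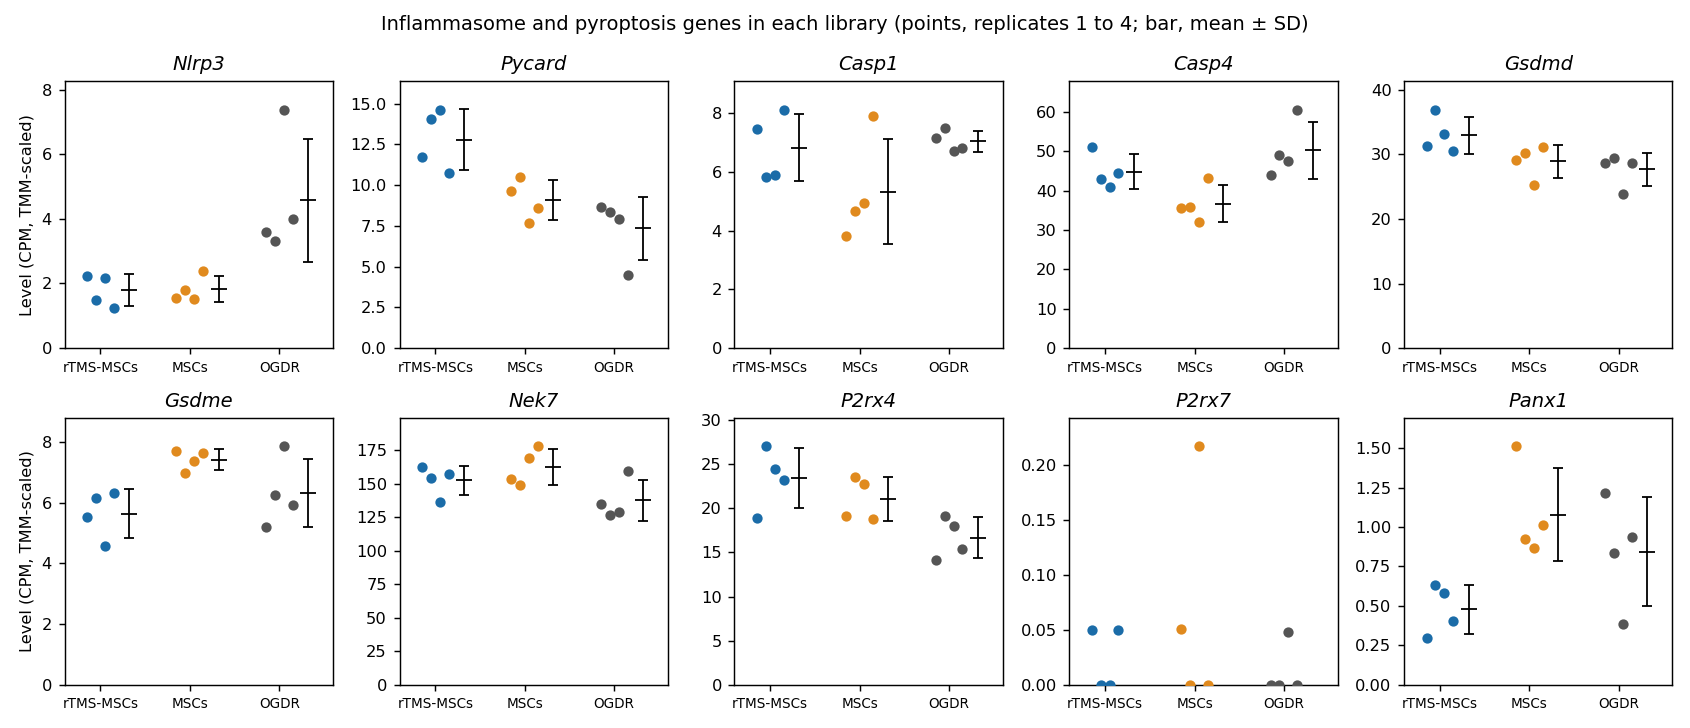
Level of each of the 10 genes (vertical axes, TMM-scaled CPM, starting at 0) in every library of rTMS-MSCs, MSCs and OGDR; points are replicates 1 to 4, and bars give the mean and SD (n = 4), left out for P2rx7, which had 0 to 4 reads per library. Nlrp3 separated OGDR (3.30 to 7.38 CPM) from both groups with stem cells (1.25 to 2.39 CPM), and Pycard was highest in the 4 rTMS-MSCs libraries (10.7 to 14.6 CPM).

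Gsdmd, the pore-forming target of both caspases, differed little. It stood at 31.3, 36.9, 33.2 and 30.4 CPM in the rTMS-MSCs libraries, at 29.1, 30.2, 25.2 and 31.1 CPM in the MSCs libraries, and at 28.6, 29.4, 23.9 and 28.7 CPM in the OGDR libraries. All rTMS-MSCs libraries were above all OGDR libraries. Gsdmd rose in rTMS-MSCs against OGDR by 0.25 ± 0.0930 on the log2 scale (adjusted p = 0.0431), a call that was lost without rTMS-MSCs 2 (adjusted p = 0.155), rTMS-MSCs 3 (0.0590), MSCs 1 (0.0525), OGDR 1 (0.0565), OGDR 3 (0.162) or OGDR 4 (0.0566). The difference was 0.19 ± 0.0931 in rTMS-MSCs against MSCs (adjusted p = 0.158) and 0.06 ± 0.0936 in MSCs against OGDR (adjusted p = 0.695).

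Gsdme, the gene of gasdermin E, stood at 5.53, 6.16, 4.56 and 6.32 CPM in the rTMS-MSCs libraries, at 7.70, 6.98, 7.36 and 7.65 CPM in the MSCs libraries, and at 5.21, 6.26, 7.86 and 5.92 CPM in the OGDR libraries. The MSCs libraries lay above all rTMS-MSCs libraries, and OGDR overlapped both. The difference in rTMS-MSCs against MSCs was -0.40 ± 0.153 and did not pass (adjusted p = 0.0751), nor did those in MSCs against OGDR (0.23 ± 0.151, adjusted p = 0.311) and in rTMS-MSCs against OGDR (-0.16 ± 0.154, adjusted p = 0.452). The 2 gasdermins thus differed in opposite directions between rTMS-MSCs and MSCs, with neither passing.

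P2rx4, an ATP-gated cation channel of the plasma membrane and lysosome, was higher with the combined treatment. It stood at 18.9, 27.0, 24.4 and 23.2 CPM in the rTMS-MSCs libraries, at 19.1, 23.5, 22.8 and 18.8 CPM in the MSCs libraries, and at 14.1, 19.2, 17.9 and 15.4 CPM in the OGDR libraries. Only OGDR 2 reached the lowest libraries of the other groups. P2rx4 rose in rTMS-MSCs against OGDR by 0.49 ± 0.122 on the log2 scale (adjusted p = 0.00443). In MSCs against OGDR the difference was 0.34 ± 0.123 (adjusted p = 0.0586), and it passed without rTMS-MSCs 1 (adjusted p = 0.0428), rTMS-MSCs 3 (0.0385), MSCs 4 (0.0473) or OGDR 2 (0.0364). Over 21 alternative settings this difference passed in 8 (adjusted p 0.0133 to 0.177). In rTMS-MSCs against MSCs it was 0.15 ± 0.121 (adjusted p = 0.394). In the GRCr8 annotation P2rx4 overlaps its neighbour Camkk2, and the strand setting of the counting is not given, so reads of the shared stretch may not have been told apart.

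P2rx7, the ATP receptor most closely tied to NLRP3 activation, was nearly silent, although it is the next coding gene to P2rx4 on chromosome 12. It had 2 reads in all rTMS-MSCs libraries together, 5 in MSCs and 1 in OGDR. That is 0.0257 CPM in rTMS-MSCs (exact Poisson 95% interval 0.00311 to 0.0928), 0.0652 CPM in MSCs (0.0212 to 0.152) and 0.0124 CPM in OGDR (0.000313 to 0.0690). These intervals cover counting error only and overlap throughout, and the gene was not tested.

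Panx1, which forms the channel through which cells release ATP, was scarce, at 0.299, 0.632, 0.583 and 0.401 CPM in the rTMS-MSCs libraries, 1.51, 0.924, 0.866 and 1.01 CPM in the MSCs libraries, and 1.22, 0.838, 0.386 and 0.935 CPM in the OGDR libraries. The rTMS-MSCs libraries lay below all MSCs libraries, while OGDR 3 was as low as rTMS-MSCs. In reads, this was 6 to 12 per library in rTMS-MSCs and 16 to 30 in MSCs. The difference in rTMS-MSCs against MSCs was -1.17 ± 0.408, just short of the threshold (adjusted p = 0.0516), and it passed without OGDR 3 (adjusted p = 0.0443), a library of neither group. Without MSCs 1 it was -0.96 (adjusted p = 0.166). Over the 19 alternative settings that gave it an adjusted p, it passed in 2 (0.0345 to 0.166). The differences in MSCs against OGDR (0.35 ± 0.377, adjusted p = 0.568) and in rTMS-MSCs against OGDR (-0.81 ± 0.416, adjusted p = 0.144) did not pass.

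Taking the comparisons in turn, adding stimulation to stem cells changed 0 of the 9 tested members, where 18.1% of all tested genes were called (7.14% up and 10.9% down). At an unadjusted p under 0.05 there were 4 members (Pycard, Panx1, Casp4 and Gsdme), against 33.9% of all genes. DESeq2 called 2, Pycard and Casp4, and gave no adjusted p for Panx1. With limma voom 3 were called, those and Panx1. For Pycard, Gsdme and Panx1 the groups did not overlap, 1 member being higher and 2 lower, against 19.0% of all genes (8.25% higher and 10.8% lower). The median log2 difference was 0.15 over the members and 0.02 over all genes. Leaving out single libraries gave 0 to 2 called members. The count over all genes was itself uneven, at 2475 with all libraries, 1480 without rTMS-MSCs 3, 1313 without MSCs 1, 1006 without MSCs 3 and 677 without both libraries numbered 3. A member that missed the threshold is not shown to be alike in both groups.

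**Figure D3:**
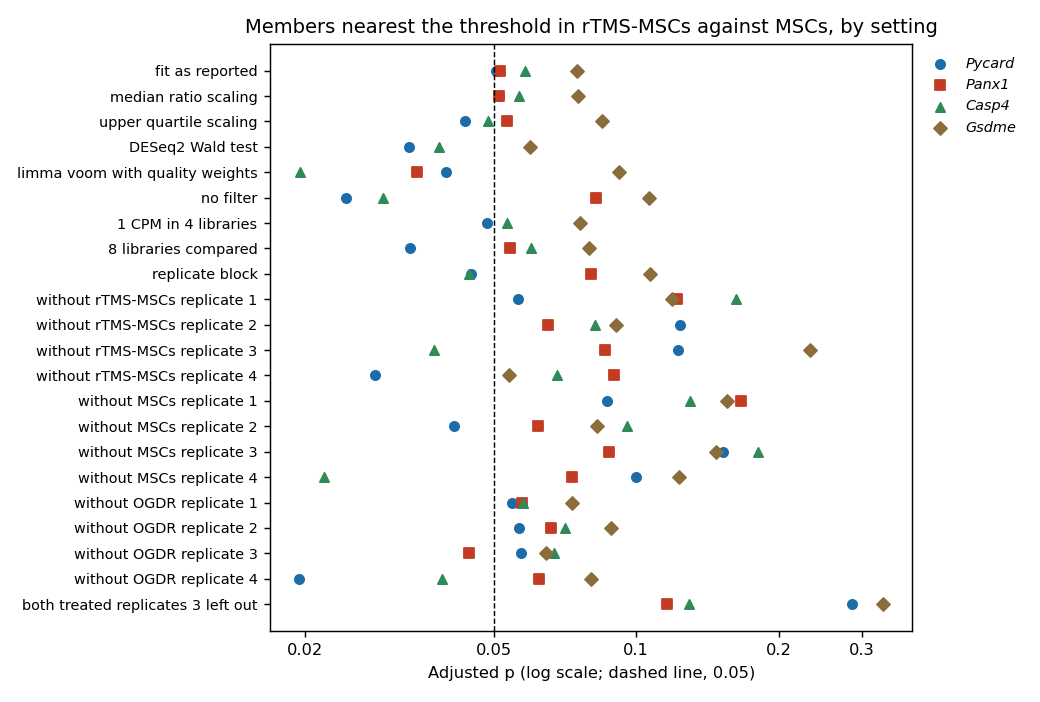
Adjusted p (horizontal, log scale, dashed line at 0.05) of Pycard, Panx1, Casp4 and Gsdme in rTMS-MSCs against MSCs, under the fit as reported and each alternative setting. Panx1 has no point for the DESeq2 Wald test or the filter of 1 CPM in 4 libraries, which gave it no adjusted p. Pycard, Panx1 and Casp4 sat at 0.0506, 0.0516 and 0.0582 as reported and crossed the line under some settings, and Gsdme was above it under all of those shown.

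Adding stem cells to injured cells changed 3 of the 9 tested members (33.3%), Nlrp3 and Casp4 down and Nek7 up, where 20.2% of all tested genes were called (11.6% up and 8.63% down). At an unadjusted p under 0.05 there were 5, against 32.0% of all genes. Groups did not overlap for 2 members, Nlrp3 and Casp4, both lower, against 24.7% of all genes (13.2% higher and 11.5% lower). The median log2 difference over the 9 members was 0.23, and over all tested genes it was -0.00. The combined treatment against injury alone changed 4 of 9 (44.4%), Nlrp3 down and Pycard, P2rx4 and Gsdmd up, where 32.4% of all tested genes were called (16.2% up and 16.2% down). The same 4 passed at an unadjusted p under 0.05, against 42.1% of all genes. Groups did not overlap for 3 of them (all but P2rx4), against 30.3% of all genes (15.5% higher and 14.8% lower), and the medians were -0.04 over the members and 0.01 over all genes. In all, 6 members were called in at least 1 comparison, 3 in none and 1 was not tested. With 9 members these shares do not set the genes apart from the background, and members moved in both directions.

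**Figure D4:**
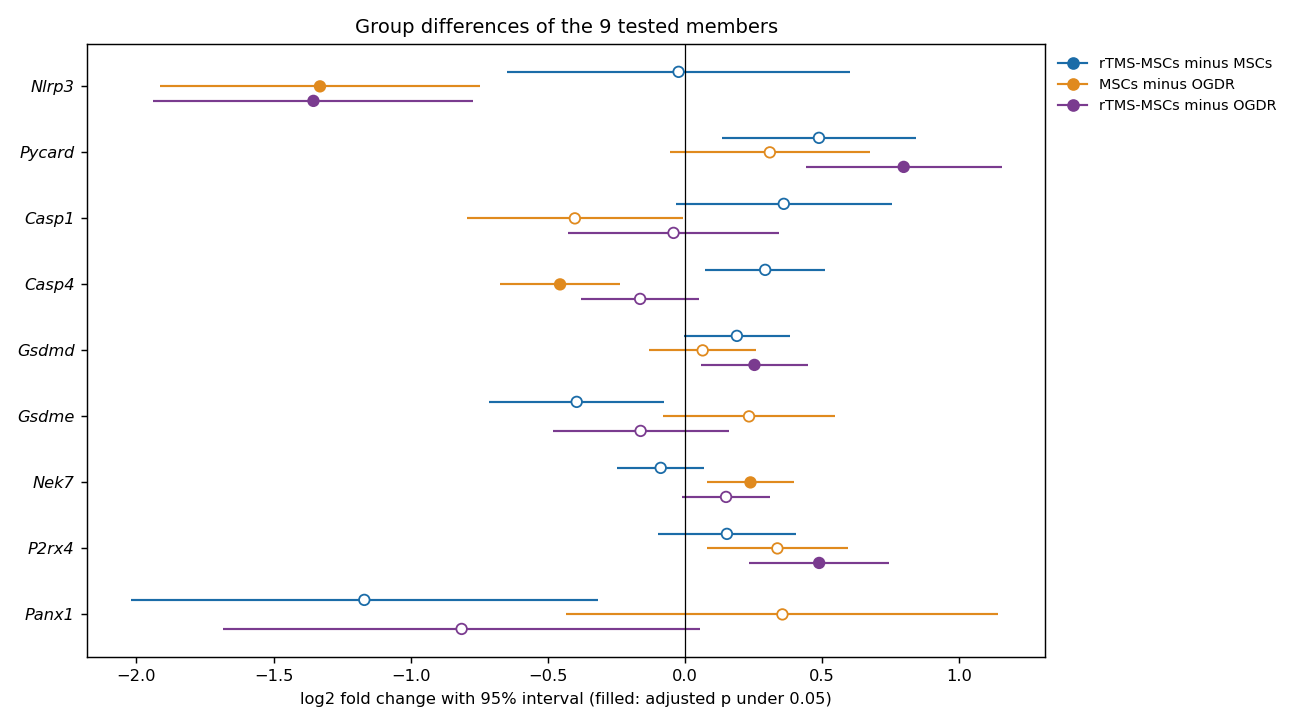
Log2 fold change (horizontal axis) with 95% interval for the 9 tested genes in rTMS-MSCs minus MSCs, MSCs minus OGDR and rTMS-MSCs minus OGDR; filled points passed an adjusted p of 0.05. Nlrp3 stood at -1.33 and -1.35 against OGDR and near 0 between the treated groups, while Pycard was above 0 in all 3 comparisons, at 0.49, 0.31 and 0.80.

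Genes around the members were described from 8 lists by role, 116 genes of which 114 were in the table and 83 were tested. In rTMS-MSCs against MSCs 8 rose and 8 fell, in MSCs against OGDR 14 rose and 10 fell, and in rTMS-MSCs against OGDR 17 rose and 16 fell. Over all tested genes 7.14% rose and 10.9% fell in rTMS-MSCs against MSCs, 11.6% rose and 8.63% fell in MSCs against OGDR, and 16.2% rose and 16.2% fell in rTMS-MSCs against OGDR, which is the background for each role list too. The median log2 differences of the 83 genes were -0.02, -0.01 and 0.01, beside 0.02, -0.00 and 0.01 over all genes.

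Of 17 other sensors 8 were tested, of which 2 fell in rTMS-MSCs against MSCs. In MSCs against OGDR 1 rose and 1 fell, and in rTMS-MSCs against OGDR 1 rose and 2 fell. Nlrp1a, a sensor of pathogen proteases, fell in rTMS-MSCs against both MSCs (-0.48 ± 0.128, adjusted p = 0.0145) and OGDR (-0.59 ± 0.127, adjusted p = 0.00134), averaging 24.1 ± 4.92 CPM in rTMS-MSCs, 33.7 ± 4.97 CPM in MSCs and 36.3 ± 3.12 CPM in OGDR (SD, n = 4). The helicase Dhx33 did likewise, at -0.29 ± 0.0740 and -0.31 ± 0.0738 (adjusted p = 0.0116 and 0.00286). Without MSCs 3 the differences between the treated groups did not pass (adjusted p = 0.0766 for Nlrp1a and 0.0577 for Dhx33). Without both libraries numbered 3 they were -0.25 for Nlrp1a (adjusted p = 0.142) and -0.21 for Dhx33 (0.138). Nod1, which detects bacterial peptidoglycan, rose in MSCs against OGDR (0.40 ± 0.0829, adjusted p = 0.00128) and in rTMS-MSCs against OGDR (0.33 ± 0.0830, adjusted p = 0.00511). The mitochondrial Nlrx1 fell in MSCs against OGDR (-0.29 ± 0.0899, adjusted p = 0.0266), a call lost without MSCs 1 (adjusted p = 0.0813), MSCs 3 (0.0527), MSCs 4 (0.0853), OGDR 1 (0.0507), OGDR 2 (0.0722) or OGDR 3 (0.0568).

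Of 11 proteases 8 were tested, of which 2 rose in rTMS-MSCs against MSCs. In MSCs against OGDR 3 fell, and in rTMS-MSCs against OGDR 1 rose and 2 fell. Gzmb, a protease of cytotoxic lymphocytes, was scarce and fell in rTMS-MSCs against OGDR (-1.76 ± 0.366, adjusted p = 0.00103) and in MSCs against OGDR (-1.69 ± 0.364, adjusted p = 0.00194), averaging 0.621 ± 0.360 CPM in rTMS-MSCs, 0.650 ± 0.123 CPM in MSCs and 2.12 ± 0.569 CPM in OGDR. The lysosomal Ctsb rose in rTMS-MSCs against MSCs (0.21 ± 0.0523, adjusted p = 0.0107) and OGDR (0.21 ± 0.0523, adjusted p = 0.00396). Casp12, the neighbour of Casp4, fell in rTMS-MSCs against OGDR (-0.41 ± 0.129, adjusted p = 0.0186), a call lost without rTMS-MSCs 3 (adjusted p = 0.0529), OGDR 3 (0.0671) or OGDR 4 (0.0654). Casp8, which links death receptors to the pathway, passed in no comparison and averaged 15.1 ± 5.14 CPM in rTMS-MSCs, 17.0 ± 1.36 CPM in MSCs and 19.6 ± 1.03 CPM in OGDR.

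Of 13 genes for pores, membrane rupture and membrane repair 11 were tested, of which 3 rose in rTMS-MSCs against MSCs. In MSCs against OGDR 1 rose, and in rTMS-MSCs against OGDR 3 rose and 1 fell. Ninj1, the protein that ruptures the membrane after gasdermin pores form, averaged 260.7 ± 41.2 CPM in rTMS-MSCs, 219 ± 6.21 CPM in MSCs and 242 ± 13.2 CPM in OGDR. It rose in rTMS-MSCs against MSCs (0.25 ± 0.0786, adjusted p = 0.0325), and this was lost without rTMS-MSCs 2 (adjusted p = 0.0581), rTMS-MSCs 3 (0.102), MSCs 1 (0.0753) or MSCs 3 (0.0926). Without rTMS-MSCs 3 the Ninj1 difference itself was 0.14. Its relative Ninj2 rose in MSCs against OGDR (0.77 ± 0.165, adjusted p = 0.00186) and in rTMS-MSCs against OGDR (0.79 ± 0.164, adjusted p = 0.00107). The ESCRT-III subunits Chmp2a and Chmp4b, part of the machinery that removes gasdermin pores, rose in rTMS-MSCs against MSCs (0.36 ± 0.0943 and 0.33 ± 0.0836, adjusted p = 0.0134 and 0.0111) and against OGDR (0.37 ± 0.0942 and 0.27 ± 0.0834, adjusted p = 0.00558 and 0.0174). Without MSCs 3 the Chmp2a rise over MSCs did not pass (adjusted p = 0.0519), and the Chmp4b rise over OGDR did not pass without rTMS-MSCs 3 (adjusted p = 0.0514) or OGDR 4 (0.0811). Without both libraries numbered 3, neither rise over MSCs passed (adjusted p = 0.123 and 0.0855), nor did that of Ctsb (0.0813).

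Of 13 genes of the interleukin-1 family 10 were tested. In MSCs against OGDR 6 rose and 1 fell, where 11.6% of all tested genes were called up, and in rTMS-MSCs against OGDR 4 rose and 1 fell. In rTMS-MSCs against MSCs 2 fell. The median log2 differences were 0.47, 0.28 and -0.07 in these comparisons, beside -0.00, 0.01 and 0.02 over all genes. Il1b and Il1a, the cytokines themselves, had 7 and 3 reads over all 12 libraries and were not tested. Il18, the other caspase-1 substrate, averaged 11.1 ± 1.48 CPM in rTMS-MSCs, 9.84 ± 1.43 CPM in MSCs and 12.04 ± 1.78 CPM in OGDR and passed in no comparison (lowest adjusted p = 0.153). The receptor Il1r1 rose in MSCs against OGDR (0.88 ± 0.119, adjusted p = 1.23e-05) and in rTMS-MSCs against OGDR (0.52 ± 0.119, adjusted p = 0.00246). It fell in rTMS-MSCs against MSCs (-0.36 ± 0.117, adjusted p = 0.0373), which was lost without rTMS-MSCs 2 (adjusted p = 0.0792), rTMS-MSCs 3 (0.0916), MSCs 1 (0.0845), MSCs 3 (0.144) or MSCs 4 (0.0537). Without rTMS-MSCs 3 the Il1r1 difference itself was -0.23. Il18rap, a subunit of the interleukin-18 receptor, rose in MSCs against OGDR (0.78 ± 0.0895, adjusted p = 1.48e-06) and in rTMS-MSCs against OGDR (0.76 ± 0.0894, adjusted p = 1.78e-06). The interleukin-33 receptor Il1rl1 rose by 0.67 ± 0.106 in MSCs against OGDR (adjusted p = 8.38e-05). Il1rn, the natural receptor antagonist, fell in MSCs against OGDR (-0.44 ± 0.0724, adjusted p = 0.000144) and in rTMS-MSCs against OGDR (-0.44 ± 0.0724, adjusted p = 0.000105), and averaged 37.3 ± 1.89 CPM in rTMS-MSCs, 37.4 ± 2.19 CPM in MSCs and 50.6 ± 2.35 CPM in OGDR.

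**Figure D5:**
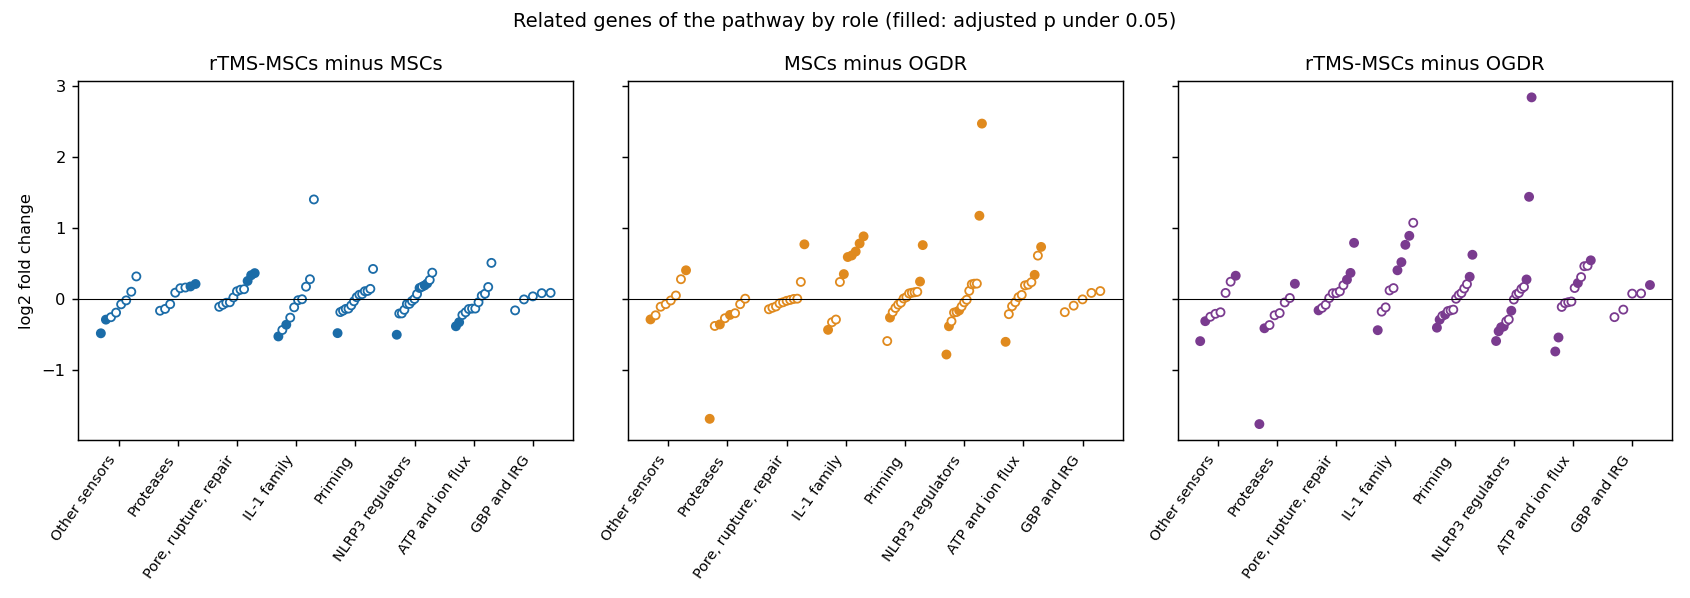
Log2 fold change (vertical axis) of the tested genes of each role list, in rank order within a list, for rTMS-MSCs minus MSCs, MSCs minus OGDR and rTMS-MSCs minus OGDR; filled points passed an adjusted p of 0.05. The highest point against OGDR is Txnip, at 2.47 in MSCs and 2.84 in rTMS-MSCs, and most genes lie within 1 log2 unit of 0.

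Of 19 regulators of NLRP3 15 were tested, of which 3 rose and 1 fell in rTMS-MSCs against MSCs. Against OGDR, in MSCs 2 rose and 3 fell, and in rTMS-MSCs 3 rose and 5 fell. Txnip, the thioredoxin-binding protein that can bind the sensor, rose in MSCs against OGDR (2.47 ± 0.152, adjusted p = 1.49e-10) and in rTMS-MSCs against OGDR (2.84 ± 0.151, adjusted p = 1.28e-11). It averaged 21.7 ± 4.14 CPM in rTMS-MSCs, 16.8 ± 0.904 CPM in MSCs and 3.03 ± 0.562 CPM in OGDR, so its groups ran opposite to those of Nlrp3 against OGDR. Serpinb1a, a serpin that restrains inflammatory caspases, rose by 1.17 ± 0.135 in MSCs against OGDR (adjusted p = 1.58e-06) and by 1.44 ± 0.134 in rTMS-MSCs against OGDR (adjusted p = 7.05e-08). The haem oxygenase gene Hmox1 and its activator Nfe2l2 fell in MSCs against OGDR (-0.78 ± 0.0601 and -0.38 ± 0.0532, adjusted p = 4.49e-09 and 1.62e-05). Both were also lower in rTMS-MSCs than in OGDR. Hmox1 averaged 293 CPM in rTMS-MSCs, 257 CPM in MSCs and 442 CPM in OGDR, and Nfe2l2 averaged 193, 203 and 265 CPM. Of 16 priming genes 14 were tested, of which 1 fell in rTMS-MSCs against MSCs. Against OGDR, in MSCs 2 rose and 1 fell, and in rTMS-MSCs 2 rose and 3 fell. The receptor gene Tlr4 fell in rTMS-MSCs against MSCs (-0.48 ± 0.121, adjusted p = 0.0112), which was lost without MSCs 3 (adjusted p = 0.0573), and in rTMS-MSCs against OGDR (-0.40 ± 0.121, adjusted p = 0.0145), which was lost without OGDR 3 (0.0602). Without both libraries numbered 3 the Tlr4 difference between the treated groups was -0.30 (adjusted p = 0.102). The signalling kinase Irak2 rose in MSCs against OGDR (0.76 ± 0.0924, adjusted p = 3.38e-06). It averaged 18.7 CPM in rTMS-MSCs, 20.5 CPM in MSCs and 12.1 CPM in OGDR, so both treated groups were higher. Nfkb1 and Irak1 fell in rTMS-MSCs against OGDR (-0.29 ± 0.0588 and -0.22 ± 0.0545, adjusted p = 0.000755 and 0.00398). Nfkb1 averaged 101 CPM in rTMS-MSCs, 113 CPM in MSCs and 124 CPM in OGDR. Irak1 averaged 130 CPM in rTMS-MSCs, 143 CPM in MSCs and 152 CPM in OGDR.

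Of 21 genes for ATP handling and ion flux 12 were tested, of which 2 fell in rTMS-MSCs against MSCs. Against OGDR, in MSCs 2 rose and 1 fell, and in rTMS-MSCs 2 rose and 2 fell. Nt5e, the ectoenzyme that turns AMP into adenosine, rose in MSCs against OGDR (0.73 ± 0.117, adjusted p = 9.39e-05), while Entpd1, which feeds it, passed in no comparison (lowest adjusted p = 0.750). The gap junction gene Gja1 fell in MSCs against OGDR (-0.60 ± 0.103, adjusted p = 0.000196). It averaged 23.4 CPM in rTMS-MSCs, 25.8 CPM in MSCs and 39.2 CPM in OGDR, so both treated groups were lower. Lrrc8a, the volume-regulated anion channel subunit, rose in MSCs against OGDR (0.34 ± 0.0812, adjusted p = 0.00469) and fell in rTMS-MSCs against MSCs (-0.38 ± 0.0814, adjusted p = 0.00451). It averaged 46.5 ± 3.00 CPM in rTMS-MSCs, 60.8 ± 5.54 CPM in MSCs and 48.0 ± 3.93 CPM in OGDR. The cation channel kinase Trpm7 fell in rTMS-MSCs against OGDR (-0.54 ± 0.101, adjusted p = 0.000362). It averaged 67.4 CPM in rTMS-MSCs, 84.7 CPM in MSCs and 98.3 CPM in OGDR. Its fall in rTMS-MSCs against MSCs was lost without rTMS-MSCs 2 (adjusted p = 0.0732), rTMS-MSCs 3 (0.0774), MSCs 1 (0.0706), MSCs 3 (0.136) or MSCs 4 (0.0514). Without both libraries numbered 3 that difference was -0.17 (adjusted p = 0.266). Of 5 tested guanylate-binding and related GTPase genes, 1 passed, Gbp2, which rose in rTMS-MSCs against OGDR (0.20 ± 0.0468, adjusted p = 0.00329).

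Likeness of pattern was measured as the root mean square difference of centred log2 CPM over the 12 libraries. Nearest to Nlrp3 were an unnamed gene, AABR07067600.1 (0.336), Stc2 (0.344) and Atp13a4 (0.346), on a scale where Nlrp3 itself varied by 0.688. Nearest to Pycard were Foxo6 (0.151) and Dexi (0.166), against a variation of 0.429. Nearest to Casp4 were Mt-atp6 (0.108), Rpf2 (0.112) and Aig1 (0.113), against 0.241. For Gsdmd the nearest were Ilkap, Nup85 and Zfp821 (0.0509 to 0.0605), for Nek7 Alcam, Cdkn1b and Gask1b (0.0570 to 0.0750), and for P2rx4 Dact3, Acaa1a and Thbs3 (0.111 to 0.129). All libraries share depth and groups, so likeness is a description.

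Markers of other cells were read beside these results. The 14 macrophage markers summed to 65.1 to 79.0 CPM in rTMS-MSCs, 53.0 to 67.7 CPM in MSCs and 52.7 to 61.2 CPM in OGDR, and without Cd14 and Cd68 to 0.802 to 2.69 CPM in rTMS-MSCs, 0.924 to 2.00 CPM in MSCs and 1.28 to 2.39 CPM in OGDR. Nearly all of the full sum was Cd14, which rose in rTMS-MSCs against OGDR (0.41 ± 0.0836, adjusted p = 0.000809). Of the 3 macrophage markers tested there, 1 was higher and 2 were lower, with a median log2 difference of -0.16. The lower ones, Cd68 and Fcer1g, did not pass. Cd68 averaged 2.95 CPM in rTMS-MSCs and 3.33 CPM in OGDR, and Fcer1g averaged 0.798 CPM in rTMS-MSCs and 0.895 CPM in OGDR. The 12 stromal markers summed to 291 to 371 CPM in rTMS-MSCs, 380.1 to 406 CPM in MSCs and 350.0 to 368 CPM in OGDR, with Lum at 0 throughout, and most of each sum was Pdgfra. Of 9 tested stromal markers 4 rose and 0 fell in MSCs against OGDR (Nt5e, Col3a1, Pdgfrb and Postn), with a median log2 difference of 0.41. Over all tested genes 11.6% rose and 8.63% fell there, with a median of -0.00. Of 9 tested Schwann cell markers 5 rose and 0 fell in the same comparison, with a median of 0.23. In rTMS-MSCs against OGDR 3 stromal markers rose (Nt5e, Col3a1 and Pdgfrb) and Pdgfra fell, with a median of 0.27. Over all tested genes 16.2% rose and 16.2% fell there, with a median of 0.01. Of the Schwann cell markers 5 rose and 1 fell, with a median of 0.26. In rTMS-MSCs against MSCs Pdgfra alone of the stromal markers passed and fell, where 7.14% of all tested genes rose and 10.9% fell. The collagen gene Col3a1 averaged 1.07 CPM in rTMS-MSCs, 0.901 CPM in MSCs and 0.319 CPM in OGDR, and the receptor gene Pdgfrb averaged 51.2 CPM in rTMS-MSCs, 58.5 CPM in MSCs and 42.2 CPM in OGDR. The part of any of these cells in the differences of the members was not tested.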

How the data were processed

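The submitters' processing notes name HISAT2 2.1.0, HTSeq 0.11.2, DESeq2 1.40.1 and the build mRatBN7.2. Per the labels' protocols, libraries were made from oligo(dT)-selected RNA with random priming. No source used here gives the strand setting of the counting. The authors deposited raw counts for 30454 genes; 5 summary lines were left out, and reads on no feature were 51.7% to 52.7% of reads per library.

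In R 4.3.3 with edgeR 4.0.16, filterByExpr chose the genes to test (minimum count 10, minimum total 15), counts were scaled by TMM, and all were fitted with 1 quasi-likelihood model over all 12 libraries with a mean per group. P-values are 2-sided and adjusted by Benjamini-Hochberg over 13692 genes, threshold 0.05. Intervals are 95%. Log2 CPM used a prior count of 2. The test was tried on simulated data. Alternatives used DESeq2 1.42.0 and limma 3.58.1 and the settings named in the closing section. Members, lists and rules were chosen with earlier results of these data known. Named were all members, up to 4 called genes with the smallest p per role list, 11 panel genes, and the 3 genes most alike each called member; the markers Ddc, Th, Scg2, Col3a1, Pdgfra, Pdgfrb, Postn, Cd14, Cd68, Adgre1, C1qa, C1qb and Lum were picked after their levels were seen. Some genes that these rules name are not reported here.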

Additional observations from a re-analysis of the deposited data

Results flagged for a closer look

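In 27 sets of 4 libraries, 9 tested genes in 3 groups each, 1 held a library far from the others. Gsdmd stood at 23.9 CPM in OGDR 3, against 28.6 to 29.4 CPM in the other OGDR libraries, a gap of 0.860 of the whole range, above Dixon's 95% critical value for 4 libraries. Nlrp3 and Pycard in OGDR came just under that value without passing it. The gap was 0.8288 of the range for Nlrp3, set by OGDR 3, and 0.818 for Pycard, set by OGDR 4. The changes of both genes without these libraries are given with their levels above. Chance alone flags about 1 in 20 such sets. Without OGDR 3 Gsdmd did not pass in rTMS-MSCs against OGDR (adjusted p = 0.162).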

How the results depend on the processing

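Over 21 alternatives each, the falls of Nlrp3 (MSCs against OGDR and rTMS-MSCs against OGDR) and Casp4 (MSCs against OGDR), and the rises of Pycard and P2rx4 (rTMS-MSCs against OGDR), kept their direction and passed throughout. Nek7 in MSCs against OGDR passed in 15 of 21 and Gsdmd in rTMS-MSCs against OGDR in 12 of 21. The number of called members in rTMS-MSCs against MSCs was 0 as reported and 0 with median ratio scaling. It was 2 with upper quartile scaling, 2 with the DESeq2 Wald test and 3 with limma voom and quality weights. It was 2 with no filter, 1 with a filter of 1 CPM in 4 libraries and 1 in a fit of the 8 libraries compared. In that comparison it was 0 to 2 when single libraries were left out. Panx1 had no adjusted p there under the DESeq2 Wald test or the filter of 1 CPM in 4 libraries. Over all genes that comparison gave 2475 calls, 1006 to 3196 when single libraries were left out and 677 without both libraries numbered 3; the cause was not tested. Signs that changed were those of differences near 0: Nlrp3 in rTMS-MSCs against MSCs (-0.15 to 0.13 when single libraries were left out), Gsdmd in MSCs against OGDR (-0.00076 to 0.12) and Casp1 in rTMS-MSCs against OGDR (-0.14 to 0.025, and 0.023 without both libraries numbered 3). Same-numbered libraries correlated above 0.1 in 1 of 12 pairs (r across genes -0.205 to 0.128), and 4 of 12 matched best with their own number, so numbers were not taken as pairs. With the replicate block 2 members passed in rTMS-MSCs against MSCs (Pycard and Casp4), 4 in MSCs against OGDR and 4 in rTMS-MSCs against OGDR. Calls over all genes were 1995, 2577 and 4185 with it. At 18 to 21 counts per CPM, Panx1 and P2rx7 were limited by depth.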

Other observations

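Genes of necroptosis, a lytic death that runs beside pyroptosis, were picked from the lists after their values were seen. Ripk3, the kinase at its core, averaged 223 ± 16.1 CPM in rTMS-MSCs, 204 ± 10.2 CPM in MSCs and 211 ± 11.5 CPM in OGDR (SD, n = 4). Mlkl, which breaches the membrane, averaged 63.1 ± 8.67 CPM in rTMS-MSCs, 66.8 ± 5.01 CPM in MSCs and 66.9 ± 4.09 CPM in OGDR. Neither passed in any comparison (lowest adjusted p = 0.136 for Ripk3 and 0.503 for Mlkl), nor did Ripk1 (lowest 0.0705) or the sensor Zbp1 (lowest 0.4995).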
